A study of Mus musculus with 42 samples.

Results

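Lungs of mice exposed to 56Fe particles were compared, as 1 pooled group, with lungs of mice that were not exposed. The 28 irradiated lungs were 13 from mice given 5 exposures of 0.2 Gy (fractionated, 6 females and 7 males) and 15 from mice given 1.0 Gy at once (acute, 7 females and 8 males), so that both schedules reached the same total dose. The 13 unirradiated lungs came from 6 females and 7 males. These 41 lungs were all of the 42 in the series but 1, a fractionated lung left out because its column in the authors' value table is empty and its profile stood apart from the rest. All mice were of the tumour-prone strain 129S2 K-rasLA1, the unirradiated ones included, so none of the groups is a normal lung. Particle energy was 1.0 GeV per nucleon. The whole left lung was taken from each mouse 70 days after exposure, with 1 array per mouse. Ages and the number of litters or cages were not used here, and p-values set a difference against the spread between these mice.

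Iron nuclei are a component of galactic cosmic rays, and they deposit energy densely along their tracks, which leaves clustered DNA damage that is slow to repair. Damaged cells activate p53, which induces genes of cell cycle arrest, such as Cdkn1a, and of its own control, such as Mdm2. In this strain a latent mutant allele is activated by spontaneous recombination in scattered cells, and tumours then arise in the lung over months. A whole lung lobe holds alveolar, airway, vascular, stromal and immune cells, so a signal from it is an average over all of them. Fewer cells of a type and less RNA per cell cannot be told apart in such tissue.

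Of 6 markers of lung cells 5 were detected on all 41 arrays, and Foxj1, a transcription factor of ciliated cells, on 38, at 5.75 to 6.89 in irradiated and 5.59 to 7.25 in unirradiated lungs. Surfactant protein C (Sftpc), made by alveolar type 2 cells, had a log2 signal of 14.23 to 15.04 in irradiated lungs and 14.55 to 15.07 in unirradiated lungs. Secretoglobin 1a1 (Scgb1a1), made by club cells of the airways, had 14.52 to 15.20 in irradiated lungs and 14.51 to 15.13 in unirradiated lungs. Between 16264 and 18289 probes were detected per array, with a mean of 17113 in irradiated lungs and 17002 in unirradiated lungs, and no difference in detection or brightness passed a permutation test (adjusted p = 0.478 for each of 3 measures, two-sided). The arrays lay on 8 slides, of which 7 held both irradiated and unirradiated lungs. The remaining slide held 1 fractionated lung alone, which its slide term absorbed, so that the fitted difference rested on 27 irradiated and 13 unirradiated lungs.

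One lung went against its label on Xist, Kdm6a and Eif2s3x of the X chromosome, though not on all sex-linked genes. Acute replicate 14, labelled female, had Xist signals of 4.48 to 4.87 on the 4 Xist probes, within the range of the 22 males on 4 of 4. The other 18 females had between 6.75 and 10.86 on the same probes. Of its genes on the Y chromosome, Kdm5d at 4.59 lay within the range of the other females. Eif2s3y at 5.91 lay above the other females and below every male. Results are given with this lung and, where it bears on them, without it.

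No transcript passed the test between irradiated and unirradiated lungs. Of 17872 probes tested, 0 (0%) had an adjusted p under 0.05 with limma, and the lowest adjusted p was 0.658. At an unadjusted p under 0.05 there were 957 probes (5.35%), of which 560 (3.13%) were higher and 397 (2.22%) lower in irradiated lungs, while an even spread of p-values would put 894 probes there. With normalization by median scaling 777 probes reached that level, 646 higher and 131 lower, so the balance between the directions depended on the scaling. Without acute replicate 14 there were 918 such probes and 0 called.

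**Figure D1:**
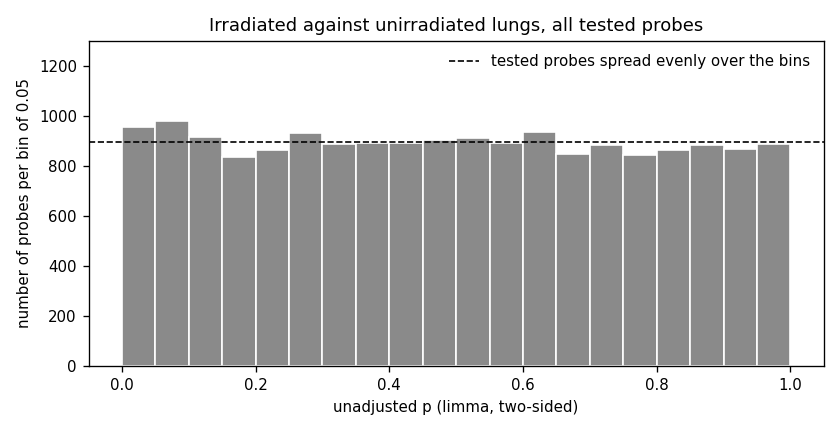
Number of tested probes (vertical axis) in each of 20 bins of unadjusted p (horizontal axis, 0.05 per bin) for irradiated against unirradiated lungs, with a dashed line at the 894 probes of an even spread. The bins hold between 834 and 978 probes, and the lowest bin, with 957, holds fewer than the next, with 978.

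Intervals around the differences were narrow for most probes. At the median probe the 95% interval extended 0.17 (log2) above and below its estimate. For 17271 probes (96.6%) the whole interval lay within a 1.5-fold difference in either direction, and for 13738 (76.9%) within a 1.25-fold difference. These are intervals of single probes and do not hold for all of them at once. The middle of the distribution of differences lay at 0.0043, and its 5th and 95th percentiles at -0.16 and 0.15. With each gene taken by its brightest tested probe, 5631 of 10269 genes were higher and 4638 lower in irradiated lungs, with a median difference of 0.0091. At an unadjusted p under 0.05 there were 511 of these genes (4.98%), with 352 (3.43%) higher and 159 (1.55%) lower.

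The 24 genes of smallest p, 12 in each direction, had differences of 0.13 to 0.39 in size, and adjusted p was 0.658 or 0.786 with limma for each. They were chosen on this contrast, so their directions and sizes describe the lead of the list and support nothing. The ranges of irradiated and unirradiated lungs overlapped for 24 of 24. The sign was shared by both schedules and by both sexes for 24 of 24, and by group means within 7 of 7 slides for 15 genes and within 6 of 7 for the other 9. Both schedules were set against the same unirradiated lungs, so their differences are not separate evidence.

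Ddit4l, an inhibitor of mTORC1 signalling, led the higher genes. Its log2 signal was 7.36 at lowest, 7.80 at the median and 8.30 at highest in irradiated lungs, against 6.56, 7.42 and 7.83 in unirradiated lungs. Of 28 irradiated lungs 26 lay above the unirradiated median, and 12 lay above the highest unirradiated lung. The difference was 0.36 ± 0.080 (SE, from 27 irradiated and 13 unirradiated lungs), a 1.29-fold difference with a 95% interval of 1.15 to 1.44, and its adjusted p was 0.658 with limma. The fractionated lungs differed by 0.41 and the acute lungs by 0.33.

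Polr2l encodes a small subunit shared by the nuclear RNA polymerases, and its signal ran from 12.52 over a median of 12.94 to 13.21 in irradiated lungs, against 12.28, 12.86 and 13.13 in unirradiated lungs. Only 16 of 28 irradiated lungs lay above the unirradiated median, although the fitted difference was 0.16 ± 0.039. Ncbp2, the RNA-binding subunit of the nuclear cap-binding complex, had 7.77, 8.29 and 8.86 in irradiated lungs and 7.64, 8.01 and 8.31 in unirradiated lungs. Its difference was 0.23 ± 0.056, with 13 irradiated lungs outside the unirradiated range, while its second probe gave 0.018 (unadjusted p = 0.8). Bcas2, a component of the spliceosome, differed by 0.22 ± 0.055, and Mrpl52, a protein of the large mitochondrial ribosomal subunit, by 0.22 ± 0.057. D11Wsu47e differed by 0.22 ± 0.052 and Znrd2 by 0.19 ± 0.050.

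Psmb9 and Ifi27 are induced by interferons. Psmb9, a catalytic subunit of the immunoproteasome, had 10.04, 10.31 and 10.69 (lowest, median and highest) in irradiated lungs and 9.89, 10.13 and 10.40 in unirradiated lungs. All but 3 of 28 irradiated lungs lay above the unirradiated median, and 9 lay outside the unirradiated range. The difference was 0.20 ± 0.054, at 0.23 in fractionated and 0.18 in acute lungs. For Ifi27 the probe named here differed by 0.17 ± 0.047 and the brighter probe of the gene by 0.052 ± 0.038.

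The remaining higher genes have unrelated roles. Araf, a Raf kinase activated by Ras, differed by 0.17 ± 0.046, and its 3 other probes lay between -0.079 and 0.052. Tctn3, a protein of the ciliary transition zone, differed by 0.23 ± 0.063. Nol3, a repressor of apoptosis, had 5.75, 6.33 and 7.37 in irradiated lungs and 5.63, 6.0 and 6.47 in unirradiated lungs. Its difference was 0.34 ± 0.097, and its 5 other probes were all higher by 0.072 to 0.18.

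**Figure D2:**
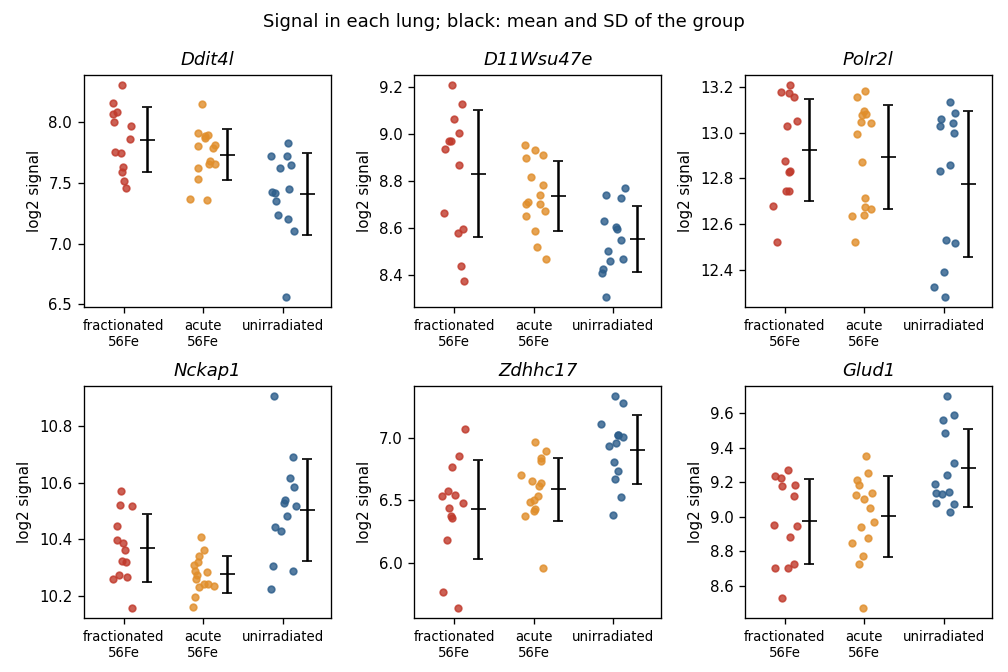
Log2 signal (vertical axes) of the 3 higher and the 3 lower genes of smallest p in each lung, in fractionated, acute and unirradiated mice from left to right; points are lungs and black marks the group mean and SD. The clouds overlap in every panel, as for Ddit4l at 7.36 to 8.30 in irradiated and 6.56 to 7.83 in unirradiated lungs.

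Among the lower genes, Zdhhc17, a palmitoyltransferase, had the widest difference. Its signal was 5.64 at lowest, 6.53 at the median and 7.07 at highest in irradiated lungs, against 6.39, 6.96 and 7.34 in unirradiated lungs. All but 2 irradiated lungs lay below the unirradiated median. The difference was -0.39 ± 0.097, at -0.48 in fractionated and -0.32 in acute lungs (adjusted p = 0.658, limma).

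Nckap1, part of the WAVE complex that drives actin branching, had 10.16, 10.30 and 10.57 in irradiated lungs and 10.22, 10.52 and 10.91 in unirradiated lungs. The irradiated lungs were the tighter group, and only 3 of them lay outside the unirradiated range. The difference was -0.20 ± 0.046.

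Glud1, the mitochondrial glutamate dehydrogenase, had 8.47, 9.01 and 9.35 in irradiated lungs against 9.03, 9.19 and 9.70 in unirradiated lungs. In 14 irradiated lungs the signal was outside the unirradiated range, and the difference was -0.26 ± 0.066. Its brightest probe differed by -0.055 ± 0.044, so the probes of this gene disagreed in size.

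Hbp1, a repressor of cell cycle genes, was measured by 4 probes, and the difference was negative on all of them, from -0.052 to -0.23. The probe of smallest p had 11.49, 11.76 and 11.95 in irradiated lungs and 11.77, 11.88 and 12.03 in unirradiated lungs. In 15 irradiated lungs the signal was below the lowest unirradiated lung. The difference was -0.13 ± 0.033.

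Egln1, the prolyl hydroxylase that marks hypoxia-inducible factors for destruction when oxygen is present, differed by -0.22 ± 0.063, and its 2 other probes by -0.14 and -0.13. Its lungs had 7.08, 7.42 and 7.74 when irradiated and 7.33, 7.64 and 7.94 when unirradiated. All but 2 irradiated lungs lay below the unirradiated median. Ccnq, the cyclin partner of Cdk10, differed by -0.28 ± 0.074, with -0.15 in fractionated and -0.39 in acute lungs. It was the only 1 of the 24 with an unadjusted p under 0.05 between the schedules (p = 0.004, limma). The brighter probe of Ccnq differed by 0.0048 ± 0.051 between irradiated and unirradiated lungs.

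The other lower genes were Xpnpep1, a cytosolic aminopeptidase (-0.29 ± 0.076), Asph, an aspartate hydroxylase (-0.25 ± 0.072), Snx13, a sorting nexin (-0.21 ± 0.060), and Ufd1, a cofactor of the p97 ATPase (-0.17 ± 0.049). Trim33, a ubiquitin ligase that acts on Smad signalling, differed by -0.20 ± 0.057, and Acvr1b, a type I activin receptor, by -0.20 ± 0.059. The brightest probe differed by -0.010 ± 0.051 for Xpnpep1, by -0.045 ± 0.058 for Snx13 and by 0.024 ± 0.060 for Trim33. Other probes of Asph, 4 in all, lay between -0.063 and 0.083. Of the 24 genes 15 had further tested probes, 32 in all. On 26 of these the sign was that of the named probe, on 6 it was the opposite, and 31 of 32 had a smaller difference than the named probe.

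**Figure D3:**
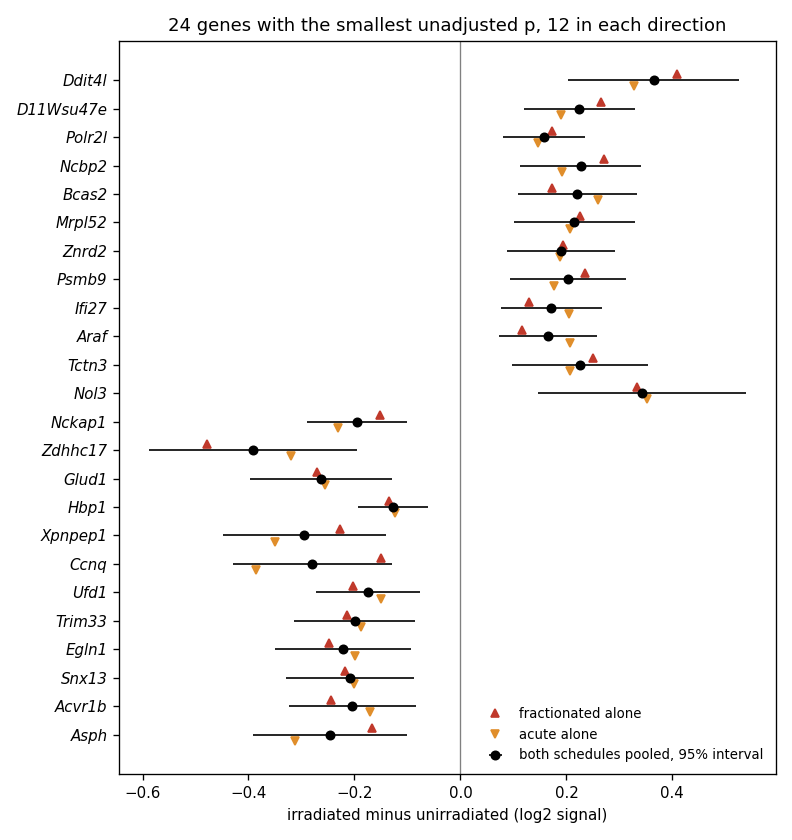
Difference in log2 signal (horizontal axis, irradiated minus unirradiated) for the 24 genes of smallest p, with black points and 95% intervals for both schedules pooled and triangles for fractionated and acute lungs, each against the same 13 unirradiated lungs. Both triangles lie on the same side of 0 for 24 of 24 genes.

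The p53 pathway was examined through 26 tested genes. None was called, 14 were higher and 12 lower, and the median difference was 0.023, against 0.0091 over all genes. For 26 of 26 the 95% interval lay within a 1.5-fold difference, as it did for 96.85% of all genes. Cdkn1a, the inhibitor of cyclin-dependent kinases that p53 induces, had 9.89, 11.06 and 11.95 in irradiated lungs and 9.18, 10.91 and 11.96 in unirradiated lungs. The irradiated range lay within the unirradiated one. The difference was 0.20 ± 0.19 (unadjusted p = 0.304, limma), with a 95% interval from 0.88-fold to 1.49-fold. This difference was -0.025 without slide 1 and -0.10 on slides 3 to 5 alone. Mdm2, the ubiquitin ligase that degrades p53, had 10.56, 11.04 and 11.38 in irradiated lungs and 10.72, 11.05 and 11.26 in unirradiated lungs, a difference of -0.016 ± 0.052.

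The members of smallest p in this list were Phlda3 and Rap2b. Phlda3, a p53 target that restrains Akt, had 9.28, 9.73 and 10.38 in irradiated lungs against 9.05, 9.48 and 9.89 in unirradiated lungs. Its difference was 0.27 ± 0.089, with 0.23 in females and 0.30 in males (unadjusted p = 0.00472, adjusted p = 0.842, limma). Rap2b, a small GTPase, differed by 0.23 ± 0.10, and the bright members Ephx1 and Dcxr by 0.090 ± 0.079 and 0.15 ± 0.085.

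Of 30 DNA repair genes tested 19 were higher and 11 lower, with a median of 0.036. For 30 of 30 the interval lay within 1.5-fold, against 96.85% of all genes. Brca2, which acts in homologous recombination, differed by 0.26 ± 0.11 and Lig1, the ligase of replication, by 0.15 ± 0.077. Among 22 genes of DNA replication and mitosis 19 were higher, at a median of 0.048, with 0.12 in females and -0.0056 in males. Within slides this list was higher in irradiated lungs on 3 and lower on 4. Mcm6 and Mcm5, subunits of the replicative helicase, differed by 0.20 ± 0.14 and 0.13 ± 0.11, and 0 of 22 reached an unadjusted p under 0.05.

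Interferon response genes had the highest median of the 38 lists, 0.12, and it was 0.13 in fractionated and 0.12 in acute lungs. Of 25 tested 21 were higher, and 8 of them had an unadjusted p under 0.05, against 3.43% of all genes that were higher at that level. The members ran from -0.35 for Rsad2 to 0.33 for Oasl2. None was called. Besides Psmb9, the member of smallest p was Ifi47, an interferon-induced GTPase, with 7.57, 8.35 and 9.16 in irradiated lungs and 7.75, 8.08 and 8.59 in unirradiated lungs. The upper end was reached by irradiated lungs, and the lower ends were close. The difference of Ifi47 was 0.24 ± 0.078 (adjusted p = 0.842, limma), while Irgm1, a bright member of the same family, differed by 0.083 ± 0.056. The mean of the list per lung, as deviation from the average over all lungs, ran from -0.20 to 0.68 in irradiated lungs and from -0.30 to 0.11 in unirradiated lungs, with medians of 0.016 in irradiated and -0.061 in unirradiated lungs.

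Proteasome genes were higher for 20 of 26, at a median of 0.057, with 4 at an unadjusted p under 0.05, where 3.43% of all genes were higher at that level. Psmd13 and Psma5, subunits of the cap and of the core, differed by 0.13 ± 0.044 and 0.089 ± 0.033. Of 66 genes of oxidative phosphorylation 44 were higher, 5 of them at that level, against the same 3.43% of all genes, and the median was 0.019. Ndufb2, a subunit of complex I, differed by 0.25 ± 0.080 and Uqcr11, of complex III, by 0.11 ± 0.037, while the bright Atp5b lay at -0.020 ± 0.036. Cytosolic ribosomal proteins were balanced, with 23 of 49 higher and a median of -0.0040. Cholesterol synthesis had a median of 0.087 with 13 of 16 higher, at 0.13 in fractionated and 0.022 in acute lungs.

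Genes of oxygen sensing were lower for 15 of 18, at a median of -0.074. Vhl, which recognises hydroxylated hypoxia-inducible factors, went the other way, at 0.27 ± 0.091 (adjusted p = 0.855, limma), and Pdk1 lay at -0.13 ± 0.061. Vegfa, the vascular growth factor, differed by -0.075 ± 0.11. Ras, Raf and MAPK genes were split evenly, 9 of 18 higher. Dusp6, a feedback phosphatase of Erk, had 11.97, 12.35 and 12.70 in irradiated lungs and 12.10, 12.54 and 12.67 in unirradiated lungs, a difference of -0.066 ± 0.056.

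Fibrosis and inflammation are known late effects of lung irradiation. Of 35 genes of fibroblasts and matrix 26 were lower, at a median of -0.074, and the highest was Timp1 at 0.40. Within slides this list was higher in irradiated lungs on 3 and lower on 4. Lox, which crosslinks collagen, had 9.50, 10.55 and 11.48 in irradiated lungs and 9.98, 10.80 and 12.04 in unirradiated lungs, a difference of -0.34 ± 0.16 (adjusted p = 0.912, limma). Of 20 genes of the TGF-beta pathway 9 were higher and 11 lower, at a median of -0.023. They ran from -0.39 ± 0.16 for Smad6, an inhibitory Smad, to 0.42 for Inhba. Secreted factors of senescent cells were higher for 12 of 17, at a median of 0.085. Among them Timp1, an inhibitor of metalloproteinases, had 8.23, 9.52 and 11.88 in irradiated lungs and 8.36, 9.10 and 10.15 in unirradiated lungs. Only irradiated lungs were at the upper end, and the difference was 0.40 ± 0.27, with 0.65 in fractionated and 0.20 in acute lungs.

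**Figure D4:**
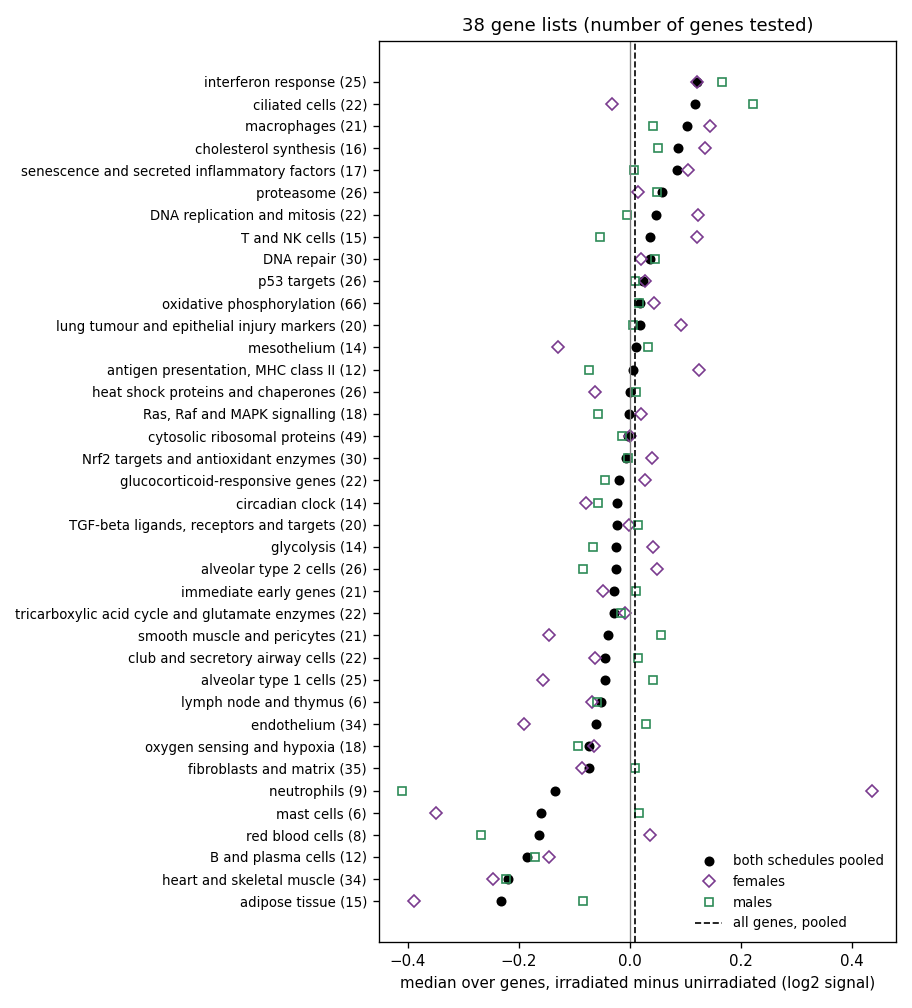
Median difference in log2 signal (horizontal axis, irradiated minus unirradiated) over the tested genes of 38 lists, whose numbers stand in brackets, for all lungs (filled), females (diamonds) and males (squares), with a dashed line at the median of all genes. Pooled medians lie between -0.23 for adipose tissue and 0.12 for interferon response, and neutrophil genes lie at 0.44 in females and -0.41 in males.

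Cell type markers were examined in the same way. Ciliated cell genes were higher for 21 of 22, at a median of 0.12, with -0.033 in females and 0.22 in males. Their mean per lung, as deviation from the average over all lungs, had medians of -0.021 in irradiated and -0.030 in unirradiated lungs. The lowest lung was unirradiated, at -1.12. Within slides the list was higher in irradiated lungs on 4 and lower on 3. Rsph1 and Rsph9, proteins of the radial spoke, differed by 0.28 ± 0.12 and 0.20 ± 0.071. Macrophage genes were higher for 16 of 21, at 0.10, with 0.19 in fractionated and 0.032 in acute lungs. Their mean deviation per lung had a median of -0.058 in irradiated and -0.0017 in unirradiated lungs, an order opposite to that of the fitted median, and the bright lysozyme genes Lyz1 and Lyz2 lay at -0.0033 ± 0.057 and 0.023 ± 0.048. Endothelial genes were lower for 27 of 34, at -0.062, with -0.19 in females and 0.029 in males. Their mean deviation per lung had a median of 0.065 in irradiated and -0.0055 in unirradiated lungs, again opposite to the fitted median. The lowest lung was irradiated, at -0.94. Within slides this list was higher in irradiated lungs on 3 and lower on 4. Alveolar type 2 and type 1 markers had medians of -0.025 and -0.045, and club cell markers -0.044. Those of smooth muscle and pericytes had -0.040, and those of mesothelium 0.011. For smooth muscle and pericytes the mean deviation per lung ran the other way, with medians of 0.11 in irradiated and 0.022 in unirradiated lungs. Of the fixed markers, Sftpc differed by -0.053 ± 0.049 and Scgb1a1 by -0.00020 ± 0.041, and the sign of Scgb1a1 turned under several settings.

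Markers of blood and lymphoid cells were uneven. B and plasma cell genes were lower for 10 of 12, at a median of -0.19, with Blk, a kinase of the B cell receptor, at -0.34 ± 0.16 and Cd79b, a chain of that receptor, at -0.22 ± 0.13. Red cell genes were lower for 7 of 8, at -0.16, although Hba-a1, a globin gene, lay at -0.0059 ± 0.038. Genes of T and NK cells had a median of 0.036. Mast cell genes were lower for 4 of 6, at -0.16, with -0.35 in females and 0.016 in males. Of these 6 genes 2 were lower at an unadjusted p under 0.05, against 1.55% of all genes. Within slides the B cell list and the mast cell list were each higher in irradiated lungs on 3 and lower on 4. Neutrophil genes had a pooled median of -0.13, and their values by sex were 0.44 in females and -0.41 in males, a gap that was not tested for the list.

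The lowest medians belonged to the lists of adipose tissue and of heart and skeletal muscle. Whether these signals came from the lung itself or from adjoining tissue was not tested. Of 34 genes of heart and skeletal muscle 30 were lower, at a median of -0.22, and of 15 adipose genes 14 were lower, at -0.23. None of either list was called. At an unadjusted p under 0.05, 2 adipose genes and 0 muscle genes were lower, against 1.55% of all genes. The mean of each list per lung was taken as deviation from the average over all lungs. For the muscle list it ran from -2.13 to 1.91 in irradiated lungs and from -1.37 to 1.79 in unirradiated lungs. For the adipose list it ran from -1.0 to 1.10 in irradiated and from -0.93 to 1.17 in unirradiated lungs. The adipose ranges nearly coincided, but the medians were -0.23 in irradiated and 0.38 in unirradiated lungs. On the muscle list the medians were -0.046 in irradiated and 0.12 in unirradiated lungs. On each list the lowest irradiated lung lay below every unirradiated lung. Myl4, an atrial myosin light chain, had 9.64, 12.63 and 14.84 in irradiated lungs and 11.01, 13.07 and 14.56 in unirradiated lungs, so no lung was without it. Within slides the muscle list was lower in 5 of 7, with differences from -1.43 to 0.47, and the adipose list likewise in 5 of 7, from -0.90 to 0.28. Their part in other differences was not tested.

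Of 17872 probes 21 had an estimate beyond 1.5-fold, 16 lower and 5 higher, and 5 of the 21 had an unadjusted p under 0.05. They were named after their values were seen, and 14 of the probes had a gene name. Cyp2e1, a cytochrome P450, had 7.07, 9.07 and 11.89 in irradiated lungs and 7.80, 10.38 and 12.91 in unirradiated lungs. Its difference was -0.95 ± 0.36, with -1.05 in females and -0.87 in males. Gkn2, a gastrokine that is also on the list of tumour and epithelial injury markers, had 4.51, 6.96 and 11.28 in irradiated lungs and 4.51, 8.64 and 10.98 in unirradiated lungs. The spread over lungs in both groups exceeded the difference of -1.32 ± 0.56 (unadjusted p = 0.0249, adjusted p = 0.869, limma). Hamp, the iron hormone hepcidin, differed by -0.86 ± 0.35.

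Others of the 21 had intervals that included 0. Adipoq, the adipocyte hormone adiponectin, had 4.58, 6.96 and 10.85 in irradiated lungs and 4.52, 8.70 and 11.35 in unirradiated lungs, a difference of -0.74 ± 0.58. Car3, a carbonic anhydrase of fat and muscle, differed by -1.15 ± 0.63, Nppa, the atrial natriuretic peptide, by -0.80 ± 0.49, and Dlk1 by -1.10 ± 0.84 and -0.92 ± 0.73 on 2 probes. On the other side, Clca1, secreted by goblet cells, differed by 1.10 ± 0.89 and 0.93 ± 0.85 on 2 probes. Its median was 4.93 in irradiated and 4.63 in unirradiated lungs on the first. On the second the order was the opposite, with 5.29 in irradiated and 5.32 in unirradiated lungs. Rnase2a, an eosinophil-associated ribonuclease, differed by 0.87 ± 0.48, with 7.18 as the median of irradiated lungs and 6.40 of unirradiated lungs.

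Pooling both schedules assumes that they share a difference from unirradiated lungs. Between fractionated and acute lungs 0 of 17872 probes were called (lowest adjusted p of 1, limma), and 503 (2.81%) reached an unadjusted p under 0.05. Of these, 198 (1.11%) were higher in fractionated lungs and 305 (1.71%) were lower. That count depended on the scaling, since median scaling gave 36 higher and 499 lower. The median interval of this contrast reached 0.19 to either side, which is wider than most of the pooled differences.

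The effect of irradiation was then compared between the sexes. No probe had a called difference between males and females in that effect (lowest adjusted p of 0.973, limma), and 668 probes (3.74%) had an unadjusted p under 0.05, 400 (2.24%) with a higher and 268 (1.5%) with a lower effect in males. With median scaling those were 477 and 66. Without acute replicate 14 there were 609 and again 0 called. The median interval reached 0.33 to either side, wider than for the pooled contrast, and 69.8% of probes had theirs within 1.5-fold.

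Hspa2, a heat shock protein of the Hsp70 family, had the smallest p. It averaged 8.43 ± 0.19 (SD, n = 13) in irradiated and 8.61 ± 0.13 (n = 6) in unirradiated females, and 8.47 ± 0.28 (n = 15) in irradiated and 7.95 ± 0.31 (n = 7) in unirradiated males. The unirradiated males were the low group. The effect was -0.15 ± 0.12 in females and 0.51 ± 0.11 in males, a difference of 0.66 ± 0.17 (adjusted p = 0.973, limma), and the second probe gave 0.52.

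Cpa3, the carboxypeptidase of mast cells, had the widest difference of the genes named. Irradiated females had 4.69 at lowest, 5.51 at the median and 5.94 at highest, against 5.27, 6.83 and 8.88 in unirradiated females. In males the values were 4.64, 5.70 and 6.50 in irradiated and 4.68, 5.43 and 6.09 in unirradiated lungs. The high values therefore came from some unirradiated females. The effect was -1.45 ± 0.32 in females and 0.26 ± 0.30 in males, and the difference of 1.71 ± 0.44 was matched by 1.62 on the second probe (adjusted p = 0.973, limma). Other mast cell genes in females lay at -0.85 for Cma1, a chymase, and at 0.18 for Hdc, which makes histamine and is bright in every lung. Cma2, another chymase gene and 1 of the 21 probes with wide estimates, lay at -1.41 in females and 0.024 in males. Without acute replicate 14 the difference was 1.66 for Cpa3 and 0.65 for Hspa2.

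**Figure D5:**
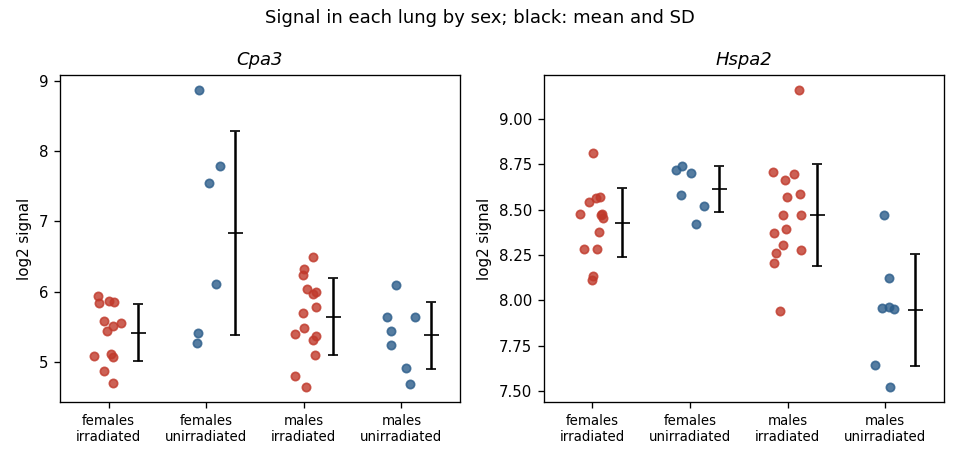
Log2 signal (vertical axes) of Cpa3 and Hspa2 in each lung, for irradiated and unirradiated females and then irradiated and unirradiated males; points are lungs and black marks the mean and SD. Irradiated females stay at or below 5.94 for Cpa3, while unirradiated females reach 8.88, and unirradiated males are the low group for Hspa2.

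The other genes named by the smallest p for a sex difference were Haus5 (0.62), Srsf3, a splicing factor (0.45), and Nup85, of the nuclear pore (0.31), whose effects were higher in males. Effects lower in males were those of Slc39a1, a zinc transporter (-0.66), Pced1a (-0.63), Nlrx1 (-0.56), Hipk1, a nuclear kinase (-0.51), and Mybbp1a (-0.25). For Pced1a, Nlrx1 and Mybbp1a the other probes of the gene had unadjusted p of 0.469 or more.

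Last, the spread between mice was compared. The residual SD of a probe had a median of 0.24 in irradiated lungs (27 lungs, without the 1 alone on its slide) and 0.23 in unirradiated lungs (13). It was larger in irradiated lungs for 10348 of 17872 probes (57.9%). No probe was called for a difference in absolute residuals (lowest adjusted p of 0.499, limma), and 1173 (6.56%) had an unadjusted p under 0.05, 777 (4.35%) with more and 396 (2.22%) with less spread in irradiated lungs. This test has low power at these group sizes, so its lack of calls says little. Tspan15, a tetraspanin, had an SD of 0.47 in irradiated and 0.12 in unirradiated lungs, and Ncbp3, a cap-binding protein, 0.088 and 0.19.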

How the data were processed

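Total RNA of flash-frozen left lungs was labelled and hybridised to Illumina arrays, per the labels' protocols. The authors' deposited table gives, for every probe, a linear signal intensity that was not normalized and a detection p-value, per the file headers. Their deposited value table holds log2 values with a median of 3.96 in each of 41 columns, and the steps before its normalization are not given in the sources used here. Its values followed the newly normalized ones with a slope of 1.17. Here the 41 signals were corrected and normalized with neqc of limma 3.58.1 under R 4.3.3 (background from detection p, offset 16, quantile, log2). Of 45281 probes the 17872 with detection p under 0.01 on at least 13 arrays were tested. Symbols came from the platform annotation, updated through RefSeq genes of GRCm38.p6. Of all probes 34885 had 1 symbol, 18 several and 10378 none in that annotation, and 34818 were matched.

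The model held irradiation, sex and slide, with a variance trend and Benjamini-Hochberg adjustment over all probes, two-sided, called at 0.05. A difference is in log2 signal with its standard error (SE), with 95% intervals. Precision is limited by how many arrays there are. Array measures were compared with 100000 permutations. Named genes were the 12 of smallest p in each direction, clone names left out, up to 4 members of each list (2 by p and 2 by signal), the 5 of smallest p in each direction for the sex difference and the spread, and Cdkn1a, Mdm2, Sftpc, Scgb1a1 and another fixed gene, which is not reported here. The lists and the comparison itself were chosen with earlier results of these data known. The 38 lists name 1111 genes; 1002 have a probe here and 813 were tested. Both the fit and the planned test of spread between mice were tested on simulated data, in which the test of spread had low power.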

Additional observations from a re-analysis of the deposited data

Results flagged for a closer look

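The array left out of every comparison, fractionated replicate 13, holds signal outside the range of the unirradiated lungs. On 9 of 38 lists its mean deviation lay above every unirradiated lung, and on 19 below every one. The widest gap was for DNA replication and mitosis, where the 22 genes averaged 3.87 above the mean of the 41 other lungs, against -0.59 to 0.57 in unirradiated lungs. Genes of T and NK cells averaged 1.73, against -0.52 to 0.53, and club cell genes -2.10, against -0.73 to 0.58. Its correlation with the median profile was 0.864, where the other 41 lungs had 0.961 to 0.991, and 16535 probes were detected on it. This is 1 lung, and no cause was tested.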

How the results depend on the processing

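Under 25 other settings and in 41 fits that each left out 1 lung, 0 probes were called between irradiated and unirradiated lungs. The lowest adjusted p was 0.151 in the settings (without slide 5) and 0.0628 with 1 lung left out (control replicate 9). The 957 probes at an unadjusted p under 0.05 became 574 with no slide term and 2215 with no filter on dim probes, and 765 to 1209 with 1 lung left out. Median scaling made 83.1% of them higher, against 58.5%. Between the schedules 503 became 308 with no slide term and 329 among probes detected on all arrays, and for the spread between mice 1173 became 759 with median scaling. None of the 24 leading genes turned its sign or was called. No list of the 38 had a called member in any setting run on lists. The cause of these shifts was not tested.

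Near 0, signs turned. Scgb1a1 became 0.011 with no slide term, 0.0092 with slide as a random block, 0.014 with array weights, 0.049 with median scaling, 0.000036 with no background correction, 0.0090 with the left-out array included, 0.033 in acute lungs, and 0.025, 0.029 and 0.021 without slides 1, 3 and 6. Mdm2 became 0.037 with position as a term and 0.037 with median scaling, 0.00074 in acute lungs, 0.13 outside slides 3 to 5, and 0.025 and 0.035 without slides 3 and 4. Sftpc became 0.022 with median scaling and 0.0029 outside slides 3 to 5. Cdkn1a became -0.10 on slides 3 to 5 and -0.025 without slide 1. With 1 lung left out Scgb1a1 ranged from -0.031 to 0.017, and Mdm2 from -0.041 to 0.019. No paired analysis was possible because replicate numbers only name the lungs.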

Other observations

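Acute replicate 14, whose Xist signal lay in the male range, was chosen for a closer look after its values were seen. Its signals of Kdm6a and Eif2s3x, genes of the X chromosome, also lay in the male range and below the other females. On the Y chromosome, Eif2s3y was intermediate and Kdm5d lay in the female range. Kdm6a, which escapes X inactivation, had 10.02 and 9.52 on 2 probes, where the 18 other females had 10.57 to 11.02 and 10.10 to 10.85 and the 22 males 9.63 to 10.30 and 9.10 to 9.95. Eif2s3x had 9.92 in this lung, against 10.33 to 11.11 in the other females and 9.73 to 10.29 in males. Eif2s3y, a gene of the Y chromosome, had 5.91 in this lung, against 4.41 to 4.97 in the other females and 8.11 to 9.65 in males. Kdm5d, also on the Y chromosome, had 4.59, within the 4.37 to 5.14 of the other females and below the 5.34 to 6.52 of males.

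Further lists held no called gene either. Circadian clock genes had a median of -0.022, with 11 of 14 lower, and Dbp, an output of the clock, had 8.02 at lowest, 12.81 at the median and 13.32 at highest in irradiated lungs, against 11.83, 12.69 and 13.40 in unirradiated lungs. The lowest value came from a single irradiated lung, while the medians lay close together. Antioxidant genes had a median of -0.0073, with catalase (Cat) at -0.13 ± 0.048 and ferritin light chain (Ftl1) at 0.14 ± 0.053, and the adjusted p was 0.869 for each with limma. Glycolysis had a median of -0.024, enzymes of the tricarboxylic acid cycle and of glutamate one of -0.029, and heat shock proteins one of 0.00028. Immediate early genes, which mark handling and acute stress, had a median of -0.029, and genes that respond to glucocorticoids one of -0.020. Markers of lymph node and thymus lay at -0.053, with 4 of 6 lower, and those of lung tumours and injured epithelium at 0.019, with 13 of 20 higher. Genes of class II antigen presentation had a median of 0.0056, with 0.13 in females and -0.074 in males.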
